A study of Arabidopsis thaliana with 12 samples.

Results

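LHB1B2, PSAN, PSBY and PSBW are nuclear genes for proteins of the photosystems and of their light-harvesting antenna. They are described here on arrays of toc160 and WT plants of Arabidopsis thaliana. The 4 genes were chosen with earlier results of these data known, so they are not an unselected sample of light-reaction genes. A single probe of the array names each of them and no other gene. LHB1B2 is AT2G34420 (probe 2665), PSAN is AT5G64040 (probe 85), PSBY is AT1G67740 (probe 2030) and PSBW is AT2G30570 (probe 3529). They are 4 of the 691 loci that a probe names alone. Total RNA of the toc160 mutant, in which plastids take up proteins poorly through their outer envelope, was hybridised to 6 arrays. Total RNA of WT was hybridised to 6 further arrays, and both groups are of ecotype Wassilevskija. The labels number the arrays of each group from 1 to 6 and give neither the toc160 allele, the tissue, the age, the growth light nor whether arrays came from separate plants, so p-values measure only the spread between these samples, which may be technical.

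The products of all 4 genes are made in the cytosol and carried into the chloroplast. Toc160 is an earlier name of Toc159, a receptor of the outer envelope that binds such precursors, those of photosynthetic proteins above all. Light-harvesting proteins hold chlorophyll and pass light energy to the reaction centres of photosystem II and photosystem I, which also carry small subunits that stabilise them or dock their electron carriers. Nuclear genes of this group are known in plants to respond to light and to the state of the plastid.

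Within each group the 6 arrays fell into 3 near-duplicate pairs, arrays 1 and 2, arrays 3 and 4, and arrays 5 and 6, with Spearman correlations over all 3439 probes of 0.983 to 0.990, against 0.871 to 0.945 between other arrays of a group. Tests were therefore run on 3 pair averages per group, and intensities are given as the mean ± SD over them (n = 3). The deposited intensities are linear, and the sources used here do not say how they were scaled before deposit. Their median was 0.627 to 0.646 on toc160 arrays and 0.477 to 0.551 on WT arrays. The log2 values tested were therefore quantile normalized, which gives every array the same distribution of values, and the sentences below say which scale a value is on. As bulk RNA was measured, fewer cells that express a gene and less transcript per cell cannot be told apart.

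Of the 4 genes, LHB1B2, PSAN and PSBY had lower deposited intensities on every toc160 array than on any WT array, a pattern found for 2.60% of the 691 loci. PSBW did not share it. In limma on pair averages without a block, 0 of the 4 genes passed an adjusted p of 0.05, against a background of 0.434% of loci, and 3 of them, all but PSAN, had an unadjusted p under 0.05, as did 11.1% of loci. With the pair as a block, PSBY passed as lower and PSBW as higher. The background was 1.74% of loci, 1.45% as lower and 0.289% as higher. PSBW passed under no scaling other than quantile normalization. Counted as 6 arrays against 6, which treats near duplicates as separate samples, all 4 passed, as did 10.4% of loci, and with the array number as a block 3 passed, as did 28.4% of loci. All 4 also passed with the pair as a block once the dimmest 25% of loci were left out, where 21.4% of loci passed on variances largely pooled over loci.

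**Figure D1:**
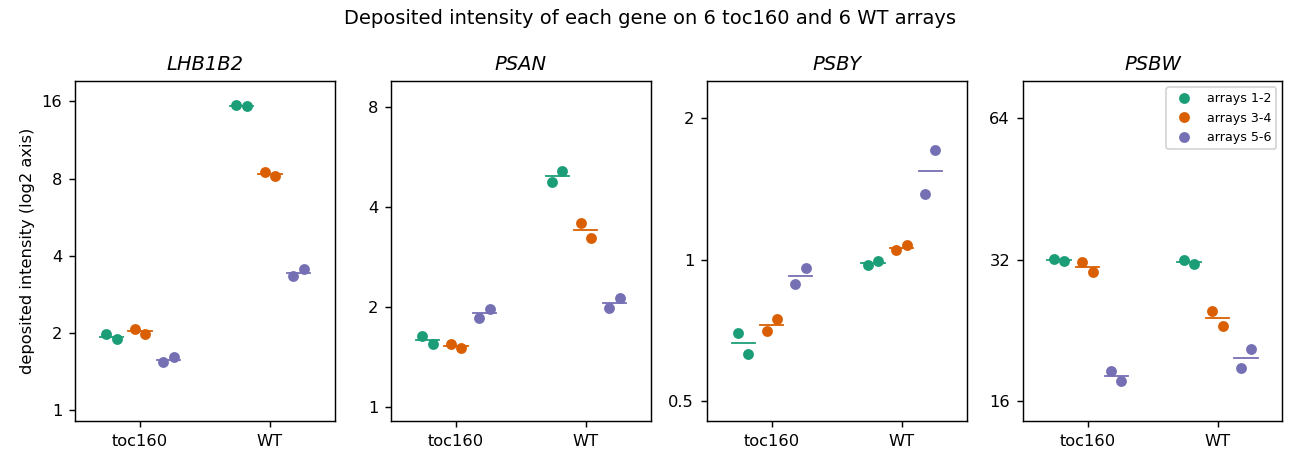
Deposited intensity (log2 axis, a range of its own in each panel) of the 4 genes on 6 toc160 arrays (left) and 6 WT arrays (right). Each point is 1 array, colours mark the near-duplicate pairs and short lines are pair averages. LHB1B2 lies between 1.54 and 2.08 on toc160 arrays and between 3.32 and 15.5 on WT arrays, and PSBW is the gene whose groups overlap.

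LHB1B2 encodes a chlorophyll-binding protein of LHCII, the main antenna of photosystem II, and belongs to the LHCB1 genes, which are near-identical copies. Its deposited intensity was at least 1.54, with a median of 1.94 and a maximum of 2.08, on the 6 toc160 arrays. On the 6 WT arrays its lowest value was 3.32, its median 8.34 and its highest 15.5. The groups did not overlap, and the WT arrays were spread far more widely than the toc160 arrays. The means were 1.85 ± 0.241 in toc160 and 9.05 ± 6.01 in WT (SD, n = 3 each). After quantile normalization the log2 difference, toc160 minus WT, was -1.90 (SE 0.53, limma adjusted p 0.262, unadjusted p 0.0167), first of 691 loci by size of fall. With the pair as a block it did not pass either (SE 0.37, limma adjusted p 0.109), but LHB1B2 passed the blocked test under median centring (-2.38, limma adjusted p 0.00133), where 6.66% of loci passed as lower. Whether the probe tells LHB1B2 from the other LHCB1 genes was not tested.

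The size of the LHB1B2 difference depended on the pair. In arrays 1 and 2 the deposited intensity averaged 1.94 in toc160 and 15.4 in WT, so toc160 had 0.126 of the WT value. In arrays 3 and 4 the averages were 2.03 in toc160 and 8.34 in WT, a ratio of 0.243. In arrays 5 and 6 they were 1.58 in toc160 and 3.43 in WT, a ratio of 0.459. The toc160 level thus stayed within a 1.29-fold range over the pairs, while the WT level covered a 4.48-fold range. On the normalized scale the 3 log2 differences were -2.62, -1.98 and -1.10. The first and the second were the largest falls of all 691 loci in their pairs, and the third held place 13.

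PSAN encodes a subunit of photosystem I on the lumenal side of the thylakoid, which takes part in the docking of plastocyanin. Its deposited intensity had a lowest value of 1.503, a median of 1.59 and a highest value of 1.98 on toc160 arrays. The WT arrays gave a lowest value of 1.99, a median of 3.41 and a highest value of 5.15. The groups met almost without a gap, since toc160 array 6 had 1.98 and WT array 5 had 1.99, and after quantile normalization they overlapped. The means were 1.68 ± 0.210 in toc160 and 3.48 ± 1.45 in WT (SD, n = 3 each). The normalized log2 difference was -0.88 (SE 0.34, limma adjusted p 0.449, unadjusted p 0.0507), place 14 among the falls. The block left PSAN short of the threshold too (limma adjusted p 0.270), and under median centring the blocked test passed it (-1.29, limma adjusted p 0.0147).

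As with LHB1B2, the PSAN difference was largest in arrays 1 and 2. Arrays 1 and 2 averaged 1.59 in toc160 and 4.96 in WT, a ratio of 0.321. Arrays 3 and 4 averaged 1.52 in toc160 and 3.41 in WT, a ratio of 0.447. Arrays 5 and 6 averaged 1.92 in toc160 and 2.06 in WT, a ratio of 0.931, and here PSAN had a normalized log2 difference of -0.03, against -1.50 and -1.10 in the other pairs. Without arrays 1 and 2 of both groups the normalized log2 difference was -0.57, and without arrays 5 and 6 it was -1.30; the adjusted p over these and the other fits that left out a pair was 0.150 to 1.

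PSBY encodes a precursor that is cut into small proteins spanning the thylakoid membrane beside photosystem II. Deposited intensities on toc160 arrays ran from 0.632 to 0.961 with a median of 0.728. On WT arrays they ran from 0.977 to 1.71 with a median of 1.06. The groups did not overlap, and in both of them arrays 5 and 6 were the brightest. The means were 0.773 ± 0.135 in toc160 and 1.197 ± 0.303 in WT (SD, n = 3 each). The normalized log2 difference was -0.86 (SE 0.18, limma adjusted p 0.144) without a block.

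Unlike LHB1B2 and PSAN, PSBY had nearly the same difference in every pair. The ratio of the toc160 to the WT intensity was 0.676 in arrays 1 and 2, 0.686 in arrays 3 and 4, and 0.599 in arrays 5 and 6. On the normalized scale the log2 differences were -0.94, -0.79 and -0.86. With the pair as a block PSBY fell (log2 difference -0.86, SE 0.04, limma adjusted p 0.0404). That blocked limma test also passed PSBY on the deposited scale (-0.61, adjusted p 0.0230), where 2.75% of loci passed as lower. Under median centring (-0.94, adjusted p 0.000396) 6.66% of loci did, and under cyclic loess (-0.88, adjusted p 0.0169) 2.17%. When any 1 pair was left out of both groups, the blocked log2 difference was -0.90 to -0.82 and the adjusted p 0.156 to 0.299, with 0 loci passing by limma in any of these 3 fits.

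PSBW encodes a small membrane subunit of photosystem II that stabilises its larger assemblies with the antenna. Its deposited intensity had a lowest value of 17.7, a median of 30.9 and a highest value of 32.1 on toc160 arrays. On WT arrays the lowest value was 18.9, the median 24.1 and the highest 32.0. The groups overlapped, and arrays 5 and 6 were the dimmest in both. The means were 27.0 ± 7.71 in toc160 and 25.2 ± 6.02 in WT (SD, n = 3 each). The ratio of the toc160 to the WT intensity was 1.01 in arrays 1 and 2, 1.28 in arrays 3 and 4, and 0.916 in arrays 5 and 6.

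The direction for PSBW was set by the scaling. After quantile normalization its log2 difference was 0.58 (SE 0.13, limma adjusted p 0.185; with the pair as a block, SE 0.04 and 0.0404), and the 3 pairs gave 0.52, 0.59 and 0.63. On the deposited scale it was 0.08 (blocked limma adjusted p 0.631), under cyclic loess 0.19 (0.359) and under median centring -0.24 (0.179). All loci together had a median log2 difference of 0.33 as deposited and 0.03 after quantile normalization, so the deposited PSBW difference of 0.08 lay below that of most loci. PSBW was among the brightest probes of every array, where quantile normalization sets a value by its place in a short list of probes. On toc160 arrays 3, 4, 5 and 6 it held the same place, 10, and therefore the same normalized value.

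**Figure D2:**
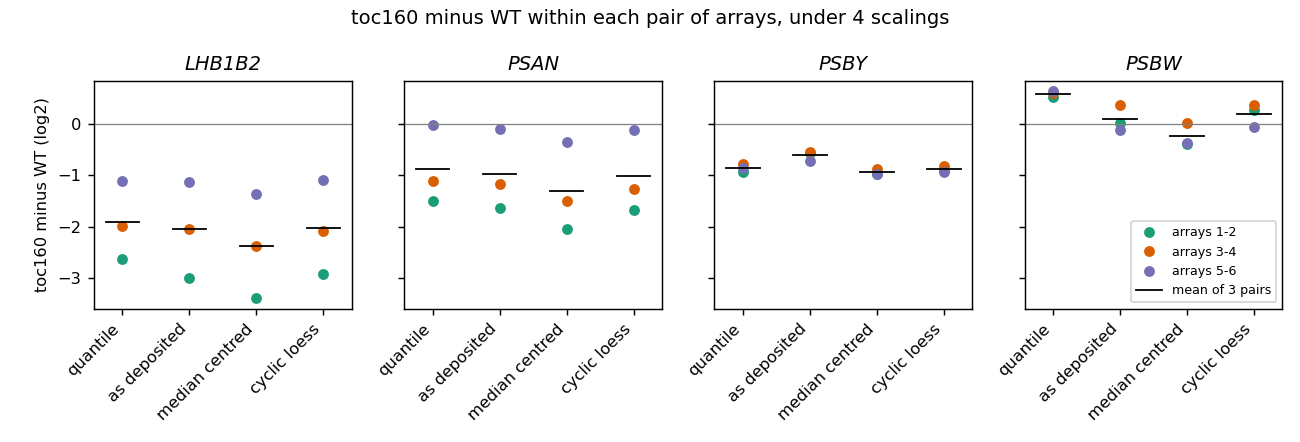
Log2 difference, toc160 minus WT, of the 4 genes in each near-duplicate pair of arrays, under 4 scalings. Points are pairs and black lines are means of the 3 pairs. PSBY lies between -0.98 and -0.54 in every pair and scaling, the points of LHB1B2 and PSAN are spread over the pairs, and the mean of PSBW changes sign between quantile normalization (0.58) and median centring (-0.24).

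The place of a probe in the order of brightness on its array is not changed by any rescaling of that array. LHB1B2 held places 247 to 403 of 3439 on toc160 arrays and places 26 to 134 on WT arrays. PSBY held places 978 to 1715 on toc160 arrays and 338 to 618 on WT arrays. PSAN held places 258 to 418 on toc160 arrays and 82 to 275 on WT arrays, so its groups overlapped. LHB1B2 and PSBY were thus lower in the order on every toc160 array, as were 4.19% of the 692 probes that name 1 gene. PSBW held places 8 to 10 on toc160 arrays and 12 to 18 on WT arrays, higher in the order on every toc160 array, as were 3.47% of those probes. This gain of places came with nearly equal deposited intensities in arrays 1 and 2 (32.0 in toc160 and 31.7 in WT).

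**Figure D3:**
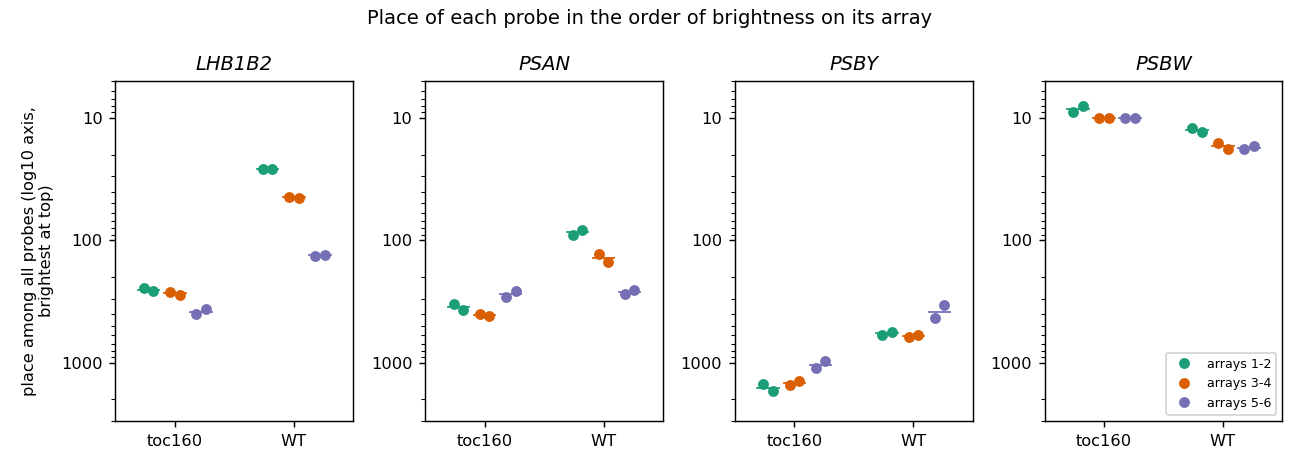
Place of the 4 probes in the order of brightness among all 3439 probes (log10 axis, place 1 at the top), on 6 toc160 arrays (left) and 6 WT arrays (right), coloured by near-duplicate pair. LHB1B2 and PSBY stand lower on all toc160 arrays, PSAN overlaps in arrays 5 and 6, and PSBW stands at places 8 to 10 on toc160 arrays and 12 to 18 on WT arrays.

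The differences of the genes were also set against each other, as the log2 ratio of a pair of probes within an array, which does not depend on how the array is centred. All 6 combinations of the 4 genes were compared with exact two-sided permutation tests over 3 toc160 and 3 WT pair averages, which cannot give a p below 0.1. The SE beside each mean of these ratios is that of the 3 differences between same-numbered pairs. The permutation test ignores this matching, so the SE and the exact p do not measure the same spread. The difference of LHB1B2 was more negative than that of PSAN in every pair (-1.12, -0.88 and -1.07 after quantile normalization), with a mean of -1.03 (SE 0.07, exact p 0.1, adjusted 0.15). So while both differences were smallest in arrays 5 and 6, the gap between them changed little on the normalized scale. As deposited the gap was -1.35, -0.88 and -1.02, a mean of -1.08 (SE 0.14, exact p 0.1, adjusted 0.3). After quantile normalization PSBY minus PSBW was -1.46, -1.38 and -1.49 in the 3 pairs, a mean of -1.44 (SE 0.03, exact p 0.1, adjusted 0.15). As deposited, however, its mean was -0.70 (SE 0.10, exact p 0.3).

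LHB1B2 minus PSBW gave -2.48 (SE 0.41) and PSAN minus PSBW -1.46 (SE 0.41), each with an exact p of 0.1 and an adjusted p of 0.15. As deposited these were -2.13 (SE 0.59, exact p 0.1) and -1.05 (SE 0.54, exact p 0.2), and PSAN minus PSBW was 0.02 in arrays 5 and 6. LHB1B2 minus PSBY was -1.04 (SE 0.42, exact p 0.3, adjusted 0.36), with -1.68, -1.20 and -0.24 in the 3 pairs. PSAN minus PSBY was -0.01 (SE 0.43, exact p 1), with -0.56 and -0.32 in the first 2 pairs and 0.83 in arrays 5 and 6. PSAN was thus the more negative of these 2 genes in 2 pairs and the less negative in the third pair.

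The arrays of a pair agreed closely for all 4 genes. The gap between the 2 arrays of a pair, on the log2 scale as deposited, was at most 0.09 for LHB1B2, 0.15 for PSAN, 0.31 for PSBY and 0.13 for PSBW. The range between pair averages was larger: for LHB1B2 it was 0.37 in toc160 and 2.16 in WT, and for PSAN 0.33 in toc160 and 1.27 in WT. For PSBY it was 0.47 in toc160 and 0.64 in WT, and for PSBW 0.82 in toc160 and 0.68 in WT. The photosystem genes thus varied between pairs in both groups, and LHB1B2 and PSAN varied more in WT.

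Arrays 5 and 6 were next set against arrays 1 and 2 within each group. LHB1B2 differed by -0.42 in toc160 and by -1.93 in WT on the normalized log2 scale, and in WT only 1 of the 691 loci had a larger fall. PSAN differed by 0.26 in toc160 and by -1.21 in WT, where it held place 15. PSBY was higher in arrays 5 and 6 in both groups, by 0.45 in toc160 and 0.37 in WT, and PSBW differed by -0.25 in toc160 and by -0.36 in WT. What separates the pairs is not in the labels, and its part in these differences was not tested.

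**Figure D4:**
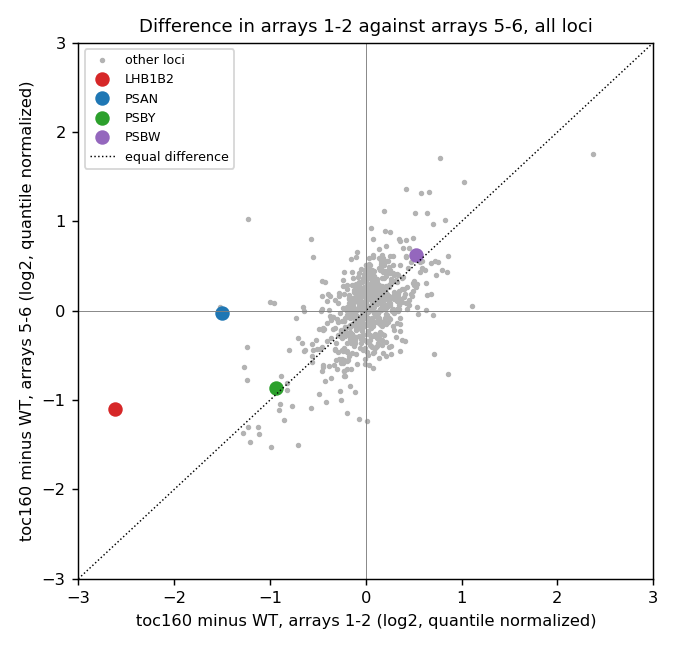
Log2 difference, toc160 minus WT after quantile normalization, in arrays 1 and 2 (horizontal axis) and in arrays 5 and 6 (vertical axis) for all 691 loci, 1 point each. The dotted line marks equal differences. PSBY (-0.94, -0.86) and PSBW (0.52, 0.63) lie near that line, and LHB1B2 (-2.62, -1.10) and PSAN (-1.50, -0.03) lie above it.

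Few other genes of the fixed lists of light-reaction genes used here could be read. Lists of 65 nuclear genes for the antenna, both photosystems, electron transport and the chloroplast ATP synthase held 5 that a probe names alone, the 4 genes and PSB27. By list these were 1 of 21 antenna genes, 1 of 13 photosystem I genes, 3 of 16 photosystem II genes, 0 of 11 electron transport genes and 0 of 4 ATP synthase genes. A further 3 antenna genes, 1 electron transport gene and 2 ATP synthase genes were only on probes with several genes, which were not used. In limma on pair averages 0 of the 5 passed (3 had an unadjusted p under 0.05, as did 11.1% of all loci), and with the block 1 passed as lower and 1 as higher, against 1.45% and 0.289% of all loci. The median log2 difference of the 5 genes was that of PSBY, -0.86, beside 0.03 over all loci.

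PSB27 (AT1G03600) is a lumenal factor that helps to assemble and repair photosystem II. Its deposited intensity averaged 2.24 ± 0.457 in toc160 and 2.06 ± 0.125 in WT (SD, n = 3 each), and the groups overlapped. The normalized log2 difference was 0.12 (SE 0.18, limma adjusted p 0.937), with -0.23, 0.15 and 0.44 in the 3 pairs. Among the listed photosystem II genes that a probe names alone, the log2 differences thus ran from -0.86 for PSBY to 0.58 for PSBW. No probe names TOC159, any of the 4 genes of the Rubisco small subunit or any of 10 seed storage genes alone, so neither the mutated gene nor these markers of green tissue and seed were analysed here.

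Over all loci the unblocked test on pair averages called 3: AT1G62250 (-1.24) and AT3G25840 (-0.78) were lower, and NdhS (0.86), a subunit of the chloroplast NAD(P)H dehydrogenase complex, was higher. These were named after their values were seen. On the deposited scale this test called 30 loci, 24 higher and 6 lower, and under median centring 11, all lower. LHB1B2 had a larger log2 difference than any of them and did not pass, with an SE of 0.53 against 0.10 for AT1G62250.

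The loci whose normalized values were most like those of each gene over the 12 arrays were sought among the 518 loci outside the dimmest 25%. The correlations are descriptions only, since the arrays are 3 near-duplicate pairs per group and share scaling and the genotype difference. PSAN was second for LHB1B2, and LHB1B2 was first for PSAN (Pearson r 0.94). Between them r was -0.78 over the 6 toc160 arrays and 0.99 over the 6 WT arrays, so the likeness lay in WT and in the genotype difference. AT5G06990 was the closest to LHB1B2 (r 0.97) and the second closest to PSAN (r 0.92), with a deposited intensity of 0.590 ± 0.0129 in toc160 and 0.983 ± 0.159 in WT. Its r with LHB1B2 was -0.03 within toc160 and 0.96 within WT, and with PSAN 0.38 and 0.95.

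The third locus for LHB1B2 was AT5G52530 (r 0.93), and the third for PSAN was GLDH (r 0.86), the enzyme of the last step of vitamin C synthesis. Their r was 0.97 and -0.32 within toc160, and 0.94 and 0.92 within WT. GLDH had deposited intensities of 0.362 ± 0.0124 in toc160 and 0.362 ± 0.0269 in WT, while on the normalized scale, which chose it, it differed by -0.52, -0.34 and -0.33 in the 3 pairs. For PSBY the closest loci were AT3G57440 (r 0.95), AT4G27390 (r 0.93) and the calmodulin-like gene CML30 (r 0.91). In that order, r was 0.88, 0.76 and 0.19 within toc160 and 0.91, 0.42 and 0.63 within WT. For PSBW the closest loci were AT2G27290 (r 0.92), AT4G05070 (r 0.92) and AT4G31930 (r 0.91). Their r, in that order, was 0.53, 0.59 and 0.08 within toc160, where PSBW has tied values, and 0.93, 0.97 and 0.80 within WT. None of the other listed light-reaction genes was among the 3 closest loci of PSBY or PSBW.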

How the data were processed

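The authors deposited linear intensities between 0 and 100, 1 for each probe on each array; scanning, background correction and scaling are not given in the sources used. Of 3439 probes, the platform annotation gave 1 gene for 692, several for 870 and none for 1877. Probes with several genes were left unnamed. By gene identifier 690 matched the TAIR10.1 reference and took its symbols, which left 691 loci after probes of 1 locus were averaged. No coordinates are given, as no build is stated for the arrays.

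Values under the 1st percentile of positive intensities (0.0364) were raised to it, log2 transformed and quantile normalized over all probes. Arrays 1 and 2, 3 and 4, and 5 and 6 of a group were averaged, and toc160 minus WT was fitted with limma 3.58.1 in R 4.3.3 (lmFit, eBayes, two-sided, Benjamini-Hochberg over all loci, threshold 0.05). Exact permutation tests used scipy 1.17.1. The fits were also run on simulated data in which all loci shared the same noise. The loci of these arrays did not, so that run does not check the p-values given here. Same-numbered arrays of the 2 groups deviated together from their group means (r 0.482 to 0.727 in all 6). Each of the 6 toc160 arrays correlated best in this way with the WT array of its own number, a matching that the unblocked fit leaves out. The labels state no pairing, so the block was fitted as an alternative, and blocked values are given where they change a call. The number of arrays limits the precision. Array sums were 3720 to 3815 in toc160 and 3612 to 3681 in WT.

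Genes named beyond the 4 are other list members that a probe names alone, the 3 loci most like each gene and, named after their values were seen, the 3 loci called without a block. The 4 genes, the lists, the pairs of arrays and the tests were chosen with earlier results of these data known. Alternatives were the block, 6 arrays against 6, other scalings, a floor at the 5th percentile (0.132), a filter on the dimmest 25% of loci and leaving out pairs.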

Additional observations from a re-analysis of the deposited data

Results flagged for a closer look

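The 4 genes and PSB27 were searched in toc160 and in WT, 10 groups of 6 arrays, for an array far from the others. This was found in 1 group. Chance gives about 5% for independent arrays, a rate that near-duplicate pairs and tied values need not follow. For PSBW, toc160 array 2 stood above the other toc160 arrays after quantile normalization, with a gap of 0.723 times the range of the 6 arrays. PSBW held place 8 among all probes on that array and places 9 and 10 on the others. As deposited, that array had an intensity of 31.8, between the 32.1 of array 1 and the 31.7 of array 3.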

How the results depend on the processing

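LHB1B2, PSAN and PSBY kept their direction under every alternative run, and PSBW reversed with median centring (-0.24 with and without the block). No gene passed without a block under other scalings, the higher floor or without the dimmest loci, where LHB1B2 (limma adjusted p 0.0504) and PSBY (0.0516) came closest. With the pair as a replicate block PSBY (-0.86) and PSBW (0.58) passed. Median centring with the block passed LHB1B2 (-2.38), PSAN (-1.29) and PSBY (-0.94); the other blocked scalings passed only PSBY (-0.61 as deposited, -0.88 with cyclic loess). Blocked and without the dimmest 25% of loci, all 4 passed (-1.90, -0.88, -0.86 and 0.58), where the prior degrees of freedom were 27.4 against 0.844 over all loci. Counting 6 arrays against 6, which treats near duplicates as replicates, passed all 4, and blocked by replicate number all but PSAN (adjusted p 0.0544). The block changed no other call.

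Leaving out pairs gave -2.43 to -1.46 for LHB1B2, -1.30 to -0.57 for PSAN, -0.99 to -0.73 for PSBY and 0.50 to 0.69 for PSBW, none passing, blocked or not; blocked fits that left out a pair were added after the data were seen. The loci past the threshold were 3, and 0 to 2 without 1 pair (10 of these 12 fits called 0, with 47 to 167 loci at an unadjusted p under 0.05). The count was 12 with the pair block, 72 for 6 arrays against 6, 196 with the number block, 30 as deposited, 11 with median centring, 5 with the higher floor and 15 without the dimmest loci. Blocked, it was 256 as deposited, 70 with median centring, 21 with cyclic loess and 111 without the dimmest loci. Of the 3 calls 33.3% were higher in toc160, of those as deposited 80.0% and of those with median centring or cyclic loess 0%.

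Between genes, counting 6 arrays against 6 treats near duplicates as replicates, which makes p-values too small. The exact permutation adjusted p was then 0.00325 for LHB1B2 minus PSAN (-1.03) and for LHB1B2 minus PSBW (-2.48). It was the same for PSAN minus PSBW (-1.46) and PSBY minus PSBW (-1.44). On pair averages the exact permutation adjusted p was 0.15 for each of these. PSAN minus PSBY reversed without arrays 1 and 2 (0.26) and without arrays 3 and 4 (0.14). Leaving out a pair gave -1.10 to -0.98 for LHB1B2 minus PSAN, -1.44 to -0.72 for LHB1B2 minus PSBY, -2.86 to -2.15 for LHB1B2 minus PSBW, -0.44 to 0.26 for PSAN minus PSBY, -1.86 to -1.18 for PSAN minus PSBW and -1.47 to -1.42 for PSBY minus PSBW. The exact sign-flip of the 3 pair differences (replicate block) cannot give a p below 0.25. The cause of these changes was not tested.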
